A study of Mus musculus with 4 samples.

Results

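Imprinted genes are transcribed mainly from 1 parental copy, usually under the control of a methylation mark set in the egg or the sperm. Most lie in clusters that share 1 control region, and many steer growth of the embryo and placenta: Igf2, a paternally expressed growth factor, is opposed by Igf2r, the maternally expressed receptor that removes it, and by other maternally expressed growth restraints such as Cdkn1c, Grb10 and Phlda2. The marks are kept through cell division by the zinc finger protein ZFP57 with TRIM28 and the maintenance methyltransferase DNMT1. The genes described here are 36 imprinted genes of the mouse, chosen by name, with earlier results of these data known. They were found on the arrays through probes whose accession maps to the gene symbol. In all, 57 probes matched 34 of the 36 genes; no probe matched H19 or Rian, which were not analysed here. Where a gene has several probes, the brightest over the 4 arrays represents it. Of the 34 genes, 32 entered the test, among 23545 features (13923 named genes and 9622 unnamed probes).

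The cells came from the mouse embryonic stem (ES) line EB5, in which the fluorescent protein Venus reports on Hoxb6, a homeobox gene active in posterior and lateral mesoderm. They were collected after 6 days of differentiation on OP9 stromal feeder cells. Both groups were sorted as Flk-1+ (Flk-1 is the product of Kdr, a receptor for VEGF that marks mesoderm with vascular and blood potential), 1 without Venus (Flk-1+ Venus-negative) and 1 with it (Flk-1+ Venus-positive). Each group had 2 single-colour Agilent arrays of total RNA. The labels describe 1 ES line and do not say whether the replicates came from separate cultures, so p-values speak only to the spread among these 4 samples, and that spread may be technical. An array reads the RNA of both parental copies together, so nothing here bears on which copy was transcribed.

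Facts of the whole series bear on every value below. All 4 arrays were on 1 slide with 1 scan; each fraction filled 1 column of the slide, so column and fraction cannot be told apart, and each row held 1 replicate number. Between 50.7% and 53.0% of spots were well above background, 0 were saturated, and the number of arrays limits the precision. Hoxb6 had log2 signals of 1.23 and 0.98 without and 2.00 and 2.24 with Venus, and Kdr was well above background on all 4 arrays. Of 10 primitive streak markers, 10 had lower means in Venus-positive cells and 7 passed the test (70.0%, against 1.36% of all features that passed as lower). Mesp1, among the 7, entered the test through its brighter Venus-negative signals, and 1 Venus-positive array did not detect it. A count without Mesp1 was not made. Of 14 endothelial markers, 14 had higher means in Venus-positive cells and 4 passed (28.6%, against 0.769% of all features that passed as higher). In bulk RNA, fewer cells of a type and less RNA per cell cannot be told apart.

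The sequences next to the results are the promoters of the pair of imprinted genes that changed past the test threshold, Mest and Phlda2, and a few microRNAs that lie inside imprinted genes. Mest, a paternally expressed gene for a hydrolase-like protein of the embryonic mesoderm, has an upstream start and a main start, and its main promoter is methylated on the maternal copy. The 250 bases before each start are printed 5′ to 3′ on the gene's strand, from RefSeq on build GRCm38.p6, with every CG dinucleotide, the site of DNA methylation, in capitals. The upstream Mest promoter (chr6:30733256-30733505, plus strand) held 7 CG dinucleotides in these 250 bases. The main Mest promoter (chr6:30737800-30738049, plus strand) held 14 and carried the hexamer TGCCGC, which ZFP57 binds when it is methylated, 2 times on the minus strand, beginning 242 and 67 bases before the start. The promoter of Phlda2 (chr7:143502525-143502774, minus strand), which is silenced through a control region elsewhere in its cluster, held 21 CG dinucleotides and 0 copies of the hexamer.
Mest upstream promoter: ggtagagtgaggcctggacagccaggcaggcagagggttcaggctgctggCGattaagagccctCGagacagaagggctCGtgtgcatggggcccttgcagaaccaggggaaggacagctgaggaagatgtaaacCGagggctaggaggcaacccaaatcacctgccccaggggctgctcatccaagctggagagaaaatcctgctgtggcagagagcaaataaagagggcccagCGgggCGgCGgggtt
Mest main promoter: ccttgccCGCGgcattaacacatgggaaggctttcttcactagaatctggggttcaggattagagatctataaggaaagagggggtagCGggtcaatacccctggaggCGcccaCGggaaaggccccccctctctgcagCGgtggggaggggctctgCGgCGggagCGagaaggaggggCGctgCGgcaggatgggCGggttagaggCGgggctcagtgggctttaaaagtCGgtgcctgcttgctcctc
Phlda2 promoter: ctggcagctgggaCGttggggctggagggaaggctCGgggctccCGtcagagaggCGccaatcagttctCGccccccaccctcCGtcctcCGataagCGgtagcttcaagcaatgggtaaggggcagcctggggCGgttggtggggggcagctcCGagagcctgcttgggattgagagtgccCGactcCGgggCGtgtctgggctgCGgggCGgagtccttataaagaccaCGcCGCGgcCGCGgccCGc

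Several imprinted transcripts carry microRNAs. RefSeq places 57 microRNA hairpins between the start of Meg3 and the end of Mirg on chromosome 12, of which 54 are on the plus strand, the strand of these noncoding RNAs. The microRNAs printed here lie inside Mest and Igf2, and inside Mirg for the pair that shares a seed; capitals mark the seed, bases 2 to 8, which pairs with target RNAs. The arrays measured the host transcripts and not these microRNAs.
miR-335-5p (inside Mest, chr6:30741314-30741336, plus strand): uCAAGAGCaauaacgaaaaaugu
miR-335-3p (inside Mest, chr6:30741354-30741375, plus strand): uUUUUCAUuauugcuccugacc
miR-483-5p (inside Igf2, chr7:142654968-142654989, minus strand): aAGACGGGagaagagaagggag
miR-483-3p (inside Igf2, chr7:142654932-142654952, minus strand): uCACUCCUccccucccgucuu
miR-453 (inside Mirg, chr12:109735669-109735692, plus strand): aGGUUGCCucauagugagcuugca
miR-496a-5p (inside Mirg, chr12:109739132-109739152, plus strand): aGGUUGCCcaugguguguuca

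The question for this gene family is which members differ when Flk-1+ cells are split by Venus. Mest rose 2.23-fold in Venus-positive cells and Phlda2 fell 9.83-fold, and these were the 2 members that passed limma at a Benjamini-Hochberg adjusted p under 0.05 over all features. With another background correction (normexp, with an offset of 50 added to the signals) the log2 change of Phlda2 was -2.37 in place of -3.30. Its processed signals in Venus-positive cells were 60.6 and 51.5, near the size of that offset, which shrinks changes of dim signals. The part of the offset in the smaller change was not tested. Magel2 was 3.08-fold and Dlk1 1.93-fold lower, just short of the threshold. Igf2 was 2.11-fold higher and did not pass (adjusted p = 0.116). At the other end were members with nearly equal signals in both fractions, among them Gnas, Impact, Ndn, Igf2r and Mkrn3, and 10 of the 32 had a log2 change under 0.2 in size.

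Counted over the 32 tested members, 2 passed in either direction, beside 2.13% of all features tested: 1 was higher (3.12%, against 0.769% of all features tested) and 1 lower (3.12%, against 1.36%). At an unadjusted p under 0.05 in limma, 5 were higher (15.6%, against 12.2% of all features) and 8 lower (25.0%, against 11.4%). The 5 include Kcnq1, which entered the test through the Venus-positive cells, where it was brighter. In a separate fit of features well above background on all 4 arrays, 4 of 31 members were higher and 8 lower. The shares of all features at that p were not counted in that fit, so these counts have no background beside them. The fractions did not overlap for 8 members that were higher (25.0%, against 28.9% of all features) and 13 that were lower (40.6%, against 28.6%), together 65.6% against 57.5%. The log2 change was below 0 for 19 of 32 members (59.4%, against 49.9%), and 5, Kcnq1 among them, had a change of at least 1 in size (15.6%, against 7.99%). The median log2 change was -0.15, beside 0.00038 over all features tested; it was -0.0574 without Venus-negative replicate 1, -0.0844 with arrays centred on their median (all features 0.0692) and -0.266 with the mean of all probes of a gene. The 2 calls rest on all 4 arrays: without any 1 array a fraction has 1 array left, which weakens the test for every feature. With dim probes kept in the test, 0 members passed in limma, and 0 of all features did. At an unadjusted p under 0.05, 5 of 34 members were then higher and 6 lower. The shares of all features at that p were not counted there.

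**Figure D1:**
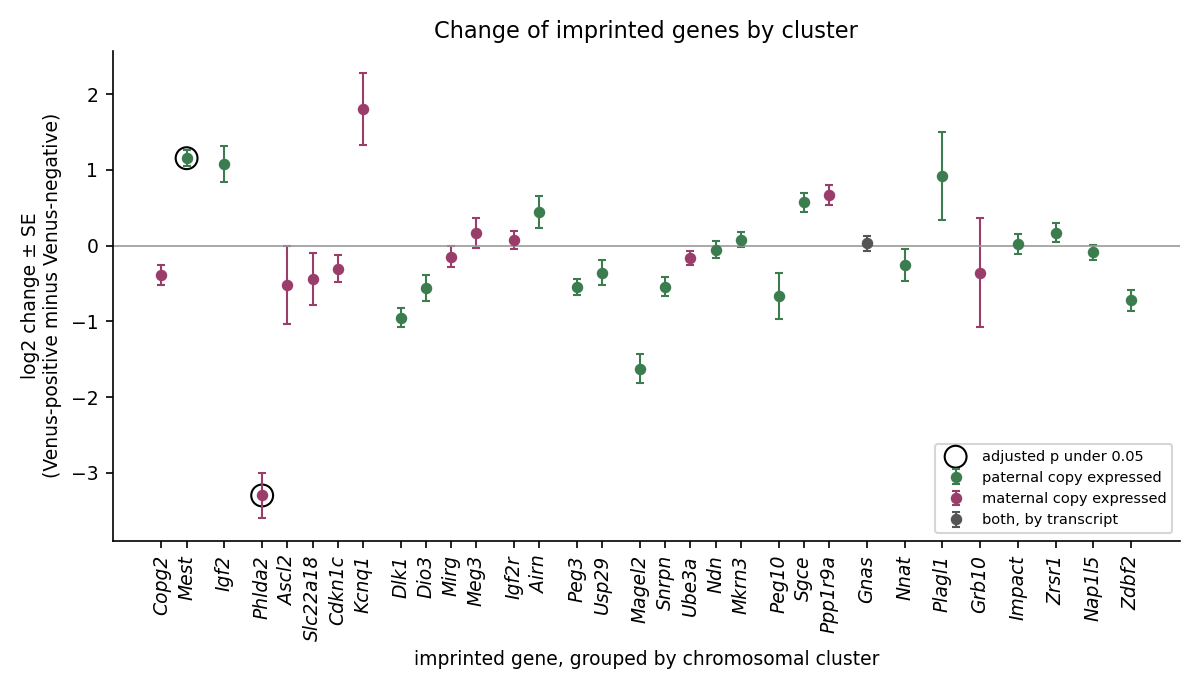
Log2 change (Venus-positive minus Venus-negative) with its moderated standard error for the 32 tested imprinted genes, grouped along the x axis by chromosomal cluster and coloured by the parental copy known to be expressed; circles mark an adjusted p under 0.05. Mest (1.16) and Phlda2 (-3.30) carry circles, and genes of 1 cluster often lie on both sides of 0.

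Mest was the called increase. Its normalised log2 signal, the log2 processed signal minus the 75th percentile of its array, was 6.79 and 6.90 in Venus-negative and 8.04 and 7.97 in Venus-positive cells. Both Venus-positive arrays lay more than 1 above both Venus-negative arrays, with little spread inside each fraction (SD 0.078 and 0.050, n = 2 each). The log2 change was 1.16 ± 0.10 SE (limma adjusted p = 0.0397). All 3 probes of Mest moved alike: in a fit with every probe as its own feature the other probes gave 1.23 ± 0.098 (adjusted p = 0.0331) and 1.18 ± 0.097 (adjusted p = 0.0335). Without any 1 array the adjusted p of Mest was 0.135 to 0.185, and with dim probes kept it was 0.145. Mest moved with the endothelial markers, whose summed normalised signal over 14 genes was 355 and 407 in Venus-negative and 686 and 788 in Venus-positive cells; their part in the result was not tested. The neighbour Copg2, a coat protein subunit of transport vesicles whose gene lies tail to tail with Mest, had a change of opposite sign. Its signals were 2.06 and 2.22 in Venus-negative and 1.66 and 1.86 in Venus-positive cells, without overlap but close together. The log2 change of Copg2 was -0.38 ± 0.13 SE (adjusted p = 0.206), and a second probe gave -0.47 ± 0.12 (adjusted p = 0.132).

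Phlda2 was the called decrease. This maternally expressed gene encodes a small membrane-binding protein that restrains growth of the placenta. Its normalised log2 signal was 0.023 and 0.80 in Venus-negative and -2.82 and -2.95 in Venus-positive cells. The Venus-negative replicates differed by 0.78, yet both lay far above both Venus-positive arrays. The log2 change was -3.30 ± 0.30 SE (limma adjusted p = 0.0397), and -2.37 ± 0.22 (adjusted p = 0.0135) with normexp background correction. Without any 1 array the log2 change of Phlda2 ranged from -3.69 to -2.91. With dim probes kept its adjusted p in limma was 0.143, and 0 of all features passed there. Phlda2 moved with the primitive streak markers, whose summed normalised signal over 10 genes was 61.4 and 48.9 in Venus-negative and 16.0 and 11.5 in Venus-positive cells; their part in the result was not tested.

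The other members of the Phlda2 cluster on chromosome 7 had changes smaller in size, and none passed. Cdkn1c, the cyclin-dependent kinase inhibitor p57, had signals of -0.075 and 0.24 in Venus-negative and -0.34 and -0.097 in Venus-positive cells, fractions that were apart by a small margin (log2 change -0.30 ± 0.17 SE, adjusted p = 0.372). Slc22a18, a membrane transporter next to Phlda2, had signals of -1.90 and -1.05 against -2.05 and -1.78, which overlapped (-0.44 ± 0.34, adjusted p = 0.496). Ascl2, a transcription factor of trophoblast and of intestinal stem cells, spread more between replicates than between fractions, at -0.47 and 0.76 against -0.70 and -0.033 (-0.52 ± 0.52, adjusted p = 0.599). Kcnq1, a potassium channel subunit, stood on the opposite side. Its signals were -5.37 and -4.42 in Venus-negative and -2.66 and -3.52 in Venus-positive cells, and 1 of the 2 Venus-negative arrays had it well above background. Because 1 Venus-negative array did not detect it, the log2 change of 1.81 ± 0.47 SE (adjusted p = 0.143) rests in part on an undetected signal; with normexp it was 0.50 ± 0.19 (adjusted p = 0.208). Of the 5 genes of the cluster, 4 had negative changes (80.0%, against 49.9% of all features), and the median was -0.44. Phlda2 was the 1 that passed, as lower, which 1.36% of all features did. The signs of Slc22a18 and Ascl2 are uncertain, as their fractions overlapped. Without Venus-negative replicate 2 their log2 changes were -0.013 and 0.10, and without Venus-negative replicate 1 they were -0.86 and -1.13. Kcnq1ot1, the noncoding RNA that silences this cluster on the paternal copy, had a log2 change of -0.56 ± 0.14 SE (adjusted p = 0.139).

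Igf2, the fetal growth factor on the same chromosome, had normalised log2 signals of -1.25 and -0.79 in Venus-negative and -0.14 and 0.25 in Venus-positive cells. Both Venus-positive arrays were higher, and in each fraction replicate 2 was above replicate 1. The log2 change was 1.08 ± 0.24 SE, which missed the threshold in limma (adjusted p = 0.116). Igf2r, the receptor that carries IGF2 to lysosomes, overlapped between fractions, at 1.30 and 1.12 against 1.21 and 1.35 (log2 change 0.075 ± 0.12, adjusted p = 0.757). Airn, the paternally expressed noncoding RNA that runs across Igf2r in the reverse direction, had signals of -0.60 and -0.48 against 0.16 and -0.35 (0.44 ± 0.21, adjusted p = 0.310). Of 19 tested genes of the wider insulin-like growth factor pathway, 0 rose and 1 fell in limma (5.26% lower, against 1.36% of all features). At an unadjusted p under 0.05, 2 were higher (10.5%, against 12.2% of all features) and 4 lower (21.1%, against 11.4%). The median log2 change was 0.035. The gene that fell was Igfbp2, a secreted protein that binds the growth factors, with a log2 change of -1.57 ± 0.14 SE (adjusted p = 0.0397). The receptor gene Igf1r had a change of 0.035 ± 0.21 (adjusted p = 0.935), and Igf1, the related ligand, of 1.24 ± 0.61 (adjusted p = 0.316).

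The cluster on chromosome 12 holds paternally expressed protein genes and maternally expressed noncoding RNAs. Dlk1, a membrane protein related to Notch ligands that holds back differentiation, had signals of 0.039 and 0.21 in Venus-negative and -0.76 and -0.88 in Venus-positive cells. The fractions were well apart, with tight replicates on both sides. The log2 change of Dlk1 was -0.95 ± 0.12 SE (limma adjusted p = 0.0586), and a second probe gave -0.89 ± 0.12 (adjusted p = 0.0558). Dio3, the enzyme that inactivates thyroid hormone, had dim signals of -3.52 and -3.85 against -4.37 and -4.12, which did not overlap (-0.56 ± 0.18, adjusted p = 0.183). Mirg, the noncoding RNA that holds the microRNAs miR-453 and miR-496a printed above, was nearly level, at 4.15 and 3.97 against 3.82 and 4.01 (-0.14 ± 0.13, adjusted p = 0.576).

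Meg3, the first noncoding RNA of that cluster, gave probe-dependent values. On the probe that represents it the signals were 5.66 and 5.59 in Venus-negative and 5.55 and 6.03 in Venus-positive cells, which overlapped (log2 change 0.17 ± 0.20 SE, adjusted p = 0.659). The other probes read lower in Venus-positive cells, with log2 changes of -0.72 ± 0.16 (adjusted p = 0.115) and -0.51 ± 0.20 (adjusted p = 0.231), neither past the threshold. Rtl1, a gene derived from a retrotransposon, was not well above background on any array, at -6.59 and -5.86 against -6.76 and -6.07, so no change could be followed. The cluster's 4 tested genes had a median of -0.35 and none passed in limma (0 higher and 2 lower at an unadjusted p under 0.05, which 12.2% and 11.4% of all features reached).

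**Figure D2:**
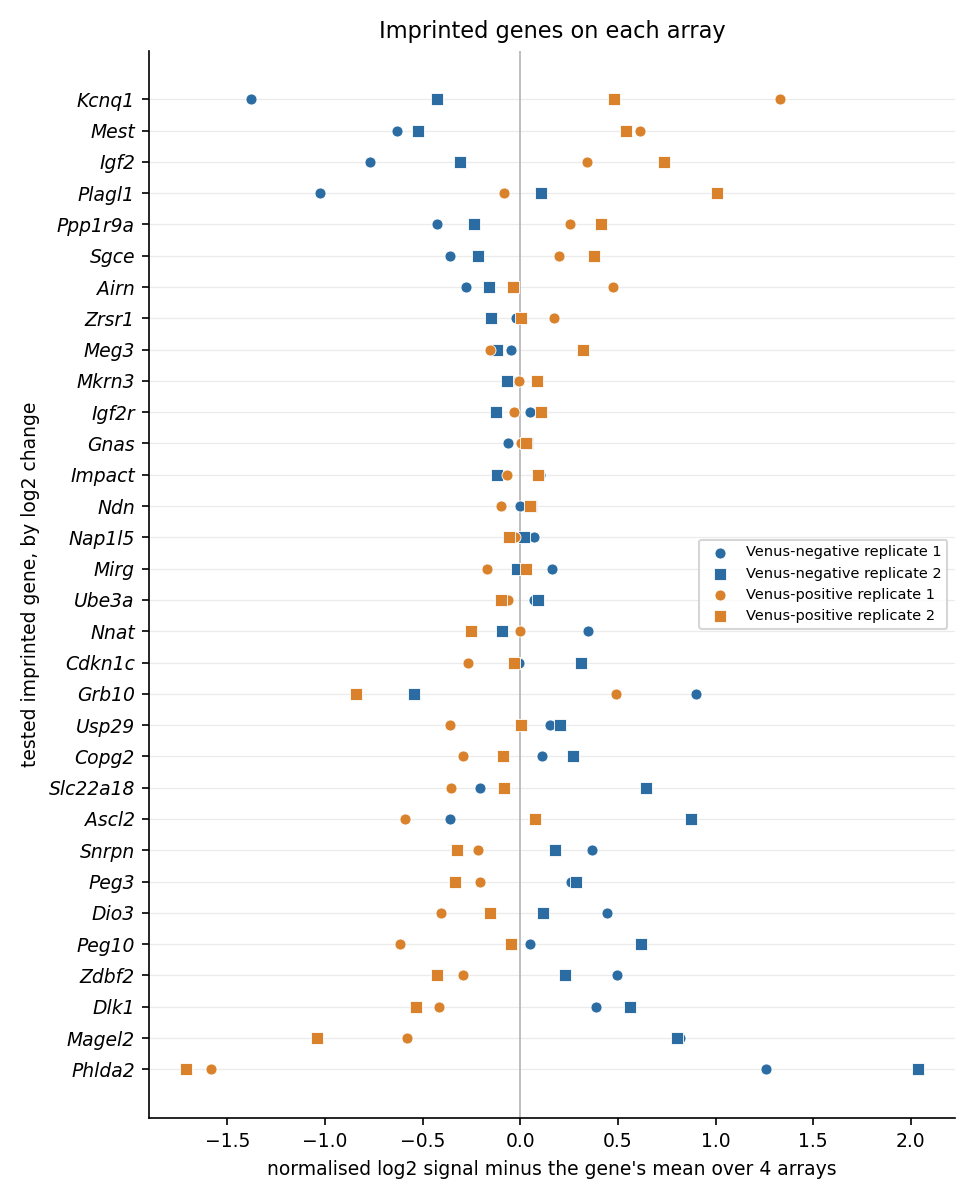
Normalised log2 signal on each of the 4 arrays, minus the gene's mean over the 4, for the 32 tested imprinted genes ordered by log2 change; blue is Venus-negative, orange Venus-positive, circles replicate 1 and squares replicate 2. Phlda2 at the bottom and Mest near the top are separated by fraction, whereas for Plagl1 and Grb10 circles and squares part more than colours do.

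The Prader-Willi and Angelman cluster of chromosome 7 held Magel2, the member with the largest negative change after Phlda2. Magel2, a MAGE family protein that acts with a ubiquitin ligase on endosomes, had signals of 0.66 and 0.65 in Venus-negative and -0.74 and -1.20 in Venus-positive cells. The Venus-negative arrays were almost identical and both Venus-positive arrays lay more than 1 below them. The log2 change was -1.62 ± 0.19 SE (limma adjusted p = 0.0533). Its direct neighbours had far smaller values. Ndn, the related protein necdin, had signals of 2.28 and 2.33 against 2.18 and 2.33, which overlapped (-0.050 ± 0.11, adjusted p = 0.818). Mkrn3, a RING finger protein, had -0.60 and -0.66 against -0.60 and -0.51 (0.078 ± 0.10, adjusted p = 0.687), and a second probe gave 0.10 ± 0.097 (adjusted p = 0.578). Both thus differed little between fractions.

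Snrpn, a protein of the splicing machinery whose first exon carries the control region of the cluster, had signals of 2.26 and 2.07 in Venus-negative and 1.68 and 1.57 in Venus-positive cells. The fractions did not overlap. The log2 change of Snrpn was -0.54 ± 0.12 SE (adjusted p = 0.120), and a second probe gave -0.52 ± 0.11 (adjusted p = 0.101); the remaining one was not well above background on any array. Ube3a, the ubiquitin ligase of Angelman syndrome, which is imprinted in neurons, differed by little, with both Venus-positive arrays lower, at 0.29 and 0.31 against 0.15 and 0.12 (-0.16 ± 0.094, adjusted p = 0.375). Among the 5 genes of the cluster 4 had changes below 0 (80.0%, against 49.9% of all features), and the median was -0.16. In limma none were past the threshold, with 0 higher and 2 lower at an unadjusted p under 0.05. Of all features, 12.2% were higher and 11.4% lower at that p. Peg12, a further paternally expressed gene of the region, had -0.43 ± 0.12 (adjusted p = 0.159).

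Peg3, a zinc finger transcription factor expressed from the paternal copy, had signals of 3.48 and 3.51 in Venus-negative and 3.02 and 2.89 in Venus-positive cells. These were tight in both fractions and did not overlap. The log2 change was -0.54 ± 0.10 SE (adjusted p = 0.0975), and a second probe gave -0.70 ± 0.15 (adjusted p = 0.106). Usp29, a deubiquitinating enzyme whose promoter faces that of Peg3, had signals of -1.89 and -1.83 against -2.40 and -2.03 (-0.36 ± 0.16, adjusted p = 0.292). Zim1, a zinc finger gene of the same cluster, was not well above background on any array with either of its 2 probes.

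On chromosome 6 the cluster of Peg10 was split. Sgce, the membrane protein epsilon-sarcoglycan, had signals of 2.48 and 2.63 in Venus-negative and 3.04 and 3.22 in Venus-positive cells, higher on both Venus-positive arrays (log2 change 0.57 ± 0.12 SE, adjusted p = 0.113). Peg10, a retrotransposon-derived gene needed by the placenta, starts next to Sgce and shares its control region. Its signals were 0.78 and 1.35 against 0.12 and 0.68, with a gap between the fractions that was smaller than the replicate difference within them (-0.67 ± 0.31, adjusted p = 0.293; second probe -0.51 ± 0.22, adjusted p = 0.267). Ppp1r9a, the actin-binding protein neurabin, had signals of 1.41 and 1.60 against 2.09 and 2.25, higher on both Venus-positive arrays (0.67 ± 0.13, adjusted p = 0.0993). Its second probe was slightly lower there (-0.15 ± 0.11, adjusted p = 0.449). Casd1, a sialic acid acetyltransferase on the other side of Sgce, had 0.86 ± 0.097 (adjusted p = 0.0510), just short of the threshold.

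**Figure D3:**
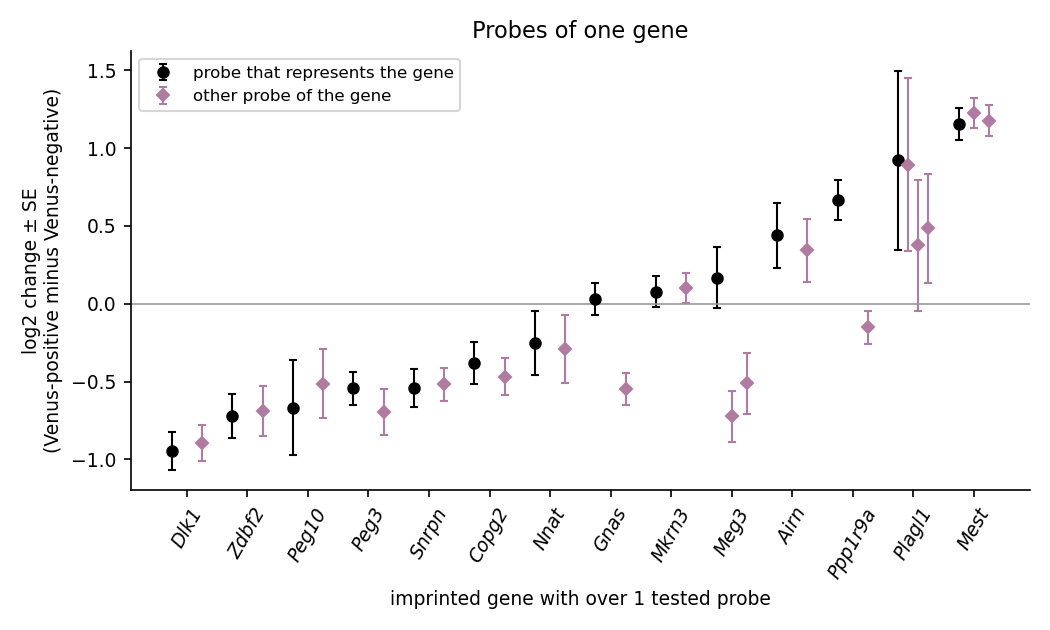
Log2 change with its standard error for each tested probe of the 14 imprinted genes with over 1 tested probe; black circles are the probe that represents the gene, diamonds the others. Probes lay on 1 side of 0 for 11 genes and on both sides for Gnas, Meg3 and Ppp1r9a.

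Probes of 1 gene can read different transcripts, and Gnas, which makes several from alternative first exons with different imprints, was 1 of 3 members whose probes differed in direction. On its representing probe the signals were 6.80 and 6.90 in Venus-negative and 6.87 and 6.89 in Venus-positive cells, practically level (log2 change 0.031 ± 0.10 SE, adjusted p = 0.878). A second probe read -2.16 and -2.03 against -2.64 and -2.65, with both Venus-positive arrays lower (-0.55 ± 0.10, adjusted p = 0.0923). The remaining probe was well above background on Venus-negative replicate 1 alone. Which transcript each probe reads was not determined here.

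Of the single genes, Zdbf2, a zinc finger gene expressed from the paternal copy, had signals of 0.52 and 0.26 in Venus-negative and -0.26 and -0.40 in Venus-positive cells. Both probes of Zdbf2 read lower in Venus-positive cells without overlap, with log2 changes of -0.72 ± 0.14 SE (adjusted p = 0.100) and -0.69 ± 0.16 (adjusted p = 0.120). Zrsr1, a splicing factor-like gene within an intron of Commd1, had signals of 0.72 and 0.59 against 0.91 and 0.74 (0.17 ± 0.12, adjusted p = 0.451). Nnat, a small membrane protein first known from neurons, overlapped at 1.57 and 1.13 against 1.22 and 0.97 (-0.25 ± 0.21, adjusted p = 0.516). Impact, a regulator of translation under stress, was level at 5.27 and 5.05 against 5.11 and 5.27 (0.022 ± 0.14, adjusted p = 0.939). Nap1l5, a nucleosome assembly-like gene, was dim and level at -2.95 and -3.00 against -3.05 and -3.08 (-0.089 ± 0.096, adjusted p = 0.624).

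Plagl1 and Grb10 differed more between replicates than between fractions. Plagl1, a zinc finger transcription factor that restrains the cell cycle, had signals of 2.64 on replicate 1 and 3.78 on replicate 2 of the Venus-negative cells, and of 3.59 and 4.68 in Venus-positive cells. Replicate 2 was thus above replicate 1 by 1.14 and 1.09, and all 4 Plagl1 probes had the higher value on replicate 2 in both fractions. The log2 change between fractions was 0.92 ± 0.58 SE (adjusted p = 0.410). Grb10, an adaptor that dampens insulin and growth factor receptors, had signals of -1.03 and -2.48 against -1.44 and -2.78. There replicate 2 was below replicate 1 in both fractions (differences of -1.44 and -1.33), and the change between fractions was -0.36 ± 0.72 (adjusted p = 0.802). A difference of at least 1 between the replicates, in the same direction in both fractions, was seen for 2 of 32 members (6.25%) and for 245 of 23545 features (1.04%). This limit was set after the values were seen. Replicate number went with the row on the slide.

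**Figure D4:**
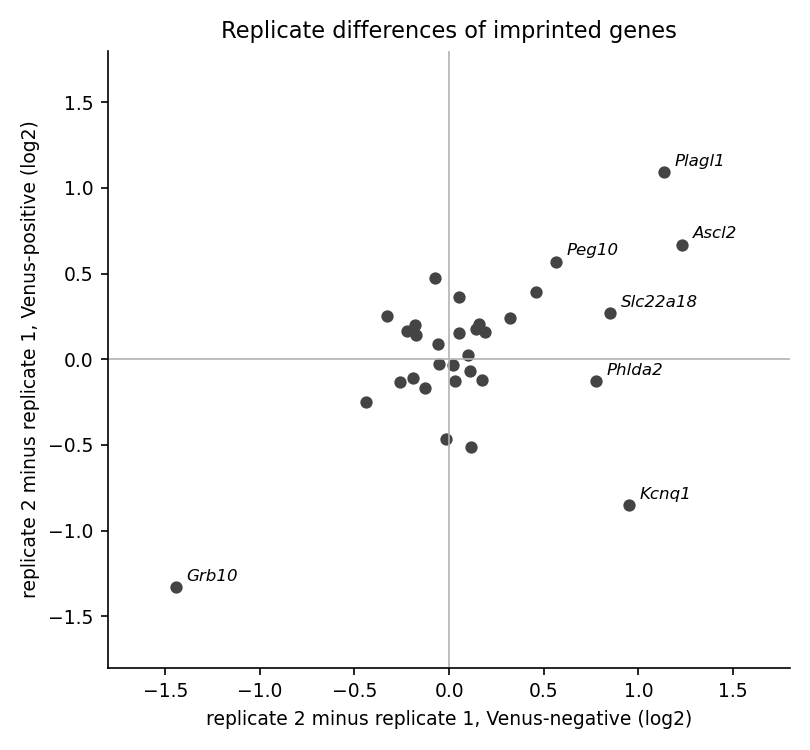
Difference between replicate 2 and replicate 1 in normalised log2 signal for the 32 tested imprinted genes, in Venus-negative (x axis) and in Venus-positive cells (y axis). Plagl1 (1.14 and 1.09) and Grb10 (-1.44 and -1.33) lie far from the centre along the diagonal, whereas Kcnq1 (0.95 and -0.85) lies off it.

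The members were also sorted by the parental copy that is known to be expressed. Of 19 tested paternally expressed genes, 8 were above and 11 below 0 in log2 change (57.9% below, against 49.9% of all features). Their median was -0.089, and Mest was the 1 that passed (5.26% higher, against 0.769% of all features). Of 12 maternally expressed genes, 4 were positive and 8 negative (66.7% negative, against 49.9%). Their median was -0.23, and Phlda2 was the 1 that passed (8.33% lower, against 1.36% of all features). Changes within a cluster often had both signs, in part through small or uncertain values. The only positive change was Mkrn3 (0.078) in the Prader-Willi and Angelman cluster. In the cluster of Dlk1 it was Meg3 (0.17), whose other probes were below 0. In that of Phlda2 it was Kcnq1, undetected on 1 Venus-negative array. Mest and Copg2 differed in sign, as did Sgce and Peg10, each without overlap between fractions. Among 7 clusters with 2 or more tested members, the log2 changes of all members had the same sign in 2, the pairs Peg3 with Usp29 (below 0) and Igf2r with Airn (above 0). None of these 4 genes passed the test, and Igf2r was at -0.014 without Venus-negative replicate 2.

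A second list of 38 further imprinted or neighbouring genes was set beside the members. Of its 31 tested genes, 0 passed in limma in either direction, and the median log2 change was 0.046. At an unadjusted p under 0.05, 10 were higher (32.3%, against 12.2% of all features) and 5 lower (16.1%, against 11.4%). The 10 include Tfpi2 and Gatm, which entered the test through the Venus-positive cells, where they were brighter. The 5 include Calcr and Rasgrf1, which entered through the Venus-negative cells, where they were brighter. Counts without these genes were not made. Tfpi2, a protease inhibitor, and Gatm, an enzyme of creatine synthesis, were not well above background on either Venus-negative array, so their differences are bounds. Set against the dimmest detected signal there, Tfpi2 was at least 0.96 and Gatm at least 0.97 higher on the log2 scale. These bounds were not tested. The limma fit used the undetected signals as they were. It gave log2 changes of 1.45 ± 0.42 SE (adjusted p = 0.164) for Tfpi2 and 1.25 ± 0.21 (adjusted p = 0.0789) for Gatm. Rasgrf1, an exchange factor of Ras, had -1.35 ± 0.23 SE (adjusted p = 0.0806) and was detected on 1 of the 2 Venus-positive arrays. The marks themselves depend on a protein machinery, of which 23 genes were tested and 0 passed in limma (at an unadjusted p under 0.05, 2 or 8.70% higher against 12.2% of all features and 4 or 17.4% lower against 11.4%; median -0.036). Dnmt3l, a cofactor for setting methylation in germ cells, had the largest difference (-2.04 ± 0.46, adjusted p = 0.119), followed by Tet2, an enzyme that oxidises methylated cytosine (0.80 ± 0.15, adjusted p = 0.0956). The maintenance genes Zfp57 (0.27 ± 0.14, adjusted p = 0.338), Dnmt1 (0.34 ± 0.12, adjusted p = 0.205), Uhrf1 (0.013 ± 0.11, adjusted p = 0.956) and Trim28 (-0.39 ± 0.097, adjusted p = 0.133) were well above background on all 4 arrays.

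Markers of other cells that a Flk-1+ sort from an OP9 culture could hold were also read. Of 15 tested stromal, fibroblast and adipocyte genes, 12 had changes below 0 (median -0.34) and 0 passed in limma, with 0 higher and 3 lower at an unadjusted p under 0.05. Their summed normalised signal was 80.2 and 76.4 in Venus-negative and 66.8 and 49.98 in Venus-positive cells, and the stromal gene Dcn was well above background on 1 of 2 arrays in each fraction. The 9 tested early blood genes had a median of -0.20 and 0 passed in limma. At an unadjusted p under 0.05, 0 were higher (against 12.2% of all features) and 1 lower (11.1%, against 11.4%). Their summed signals were 107 and 159 against 91.7 and 104. Of 10 pluripotency genes, Tdgf1, a Nodal co-receptor also active in the streak, was the 1 that passed (-4.89 ± 0.14, adjusted p = 0.0249). Pou5f1, the central pluripotency factor, had -2.39 ± 0.34 (adjusted p = 0.0668). Of the 10, 7 had changes below 0 (70.0%, against 49.9% of all features), with a median of -0.30. Klf2 (0.95 ± 0.22, adjusted p = 0.126) and Klf4 (0.50 ± 0.21, adjusted p = 0.257), transcription factors not limited to ES cells, had changes above 0, and the summed signal of the 10 was 45.5 and 47.9 against 66.2 and 75.3. Of 6 tested endoderm genes the keratin Krt8 was the 1 that passed (16.7% lower, against 1.36% of all features), at -2.77 ± 0.24 (limma adjusted p = 0.0389). Sox17 (1.35 ± 0.24, adjusted p = 0.0866) and Sox7 (0.99 ± 0.16, adjusted p = 0.0791), transcription factors also found in endothelium, had changes above 0. At an unadjusted p under 0.05, 2 of the 6 were higher (33.3%, against 12.2% of all features) and 4 lower (66.7%, against 11.4%). Summed signals of the endoderm genes were 40.0 and 46.0 against 35.6 and 36.6. The part of these cells in the members' values was not tested.

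Promoter sequence is a feature that played no role in choosing the genes. RefSeq promoter windows of 300 bases (250 before to 50 after a start) were held for 29 of the 36 members, 44 windows in all. The median number of CG dinucleotides was 15 per member window and 7 over 32851 windows of all genes. The hexamer TGCCGC, searched on both strands with overlaps counted, was present in 12 of 44 member windows (27.3%) and in 3813 windows of all genes (11.6%), and 2 or more copies in 4 (9.09%) and in 1.53%. The windows with 2 or more were both overlapping windows of the main Mest start, that of Nap1l5 and the upstream one of Zdbf2. By gene, 7 of 16 paternally expressed members (43.8%) and 4 of 12 maternally expressed ones (33.3%) had it in at least 1 window, beside 13.1% of all genes. A gene with more windows has more chances here. Members had 44 windows for 29 genes, and all genes 32851 windows for 27025, so the shares by gene are not on equal terms. These are matches of letters and not binding sites, and CG-rich windows hold more chances for a hexamer that contains CG. The main Mest promoter held it, as did windows of Nap1l5, Nnat and Plagl1, which did not pass the test, and the window of Phlda2 did not.

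**Figure D5:**
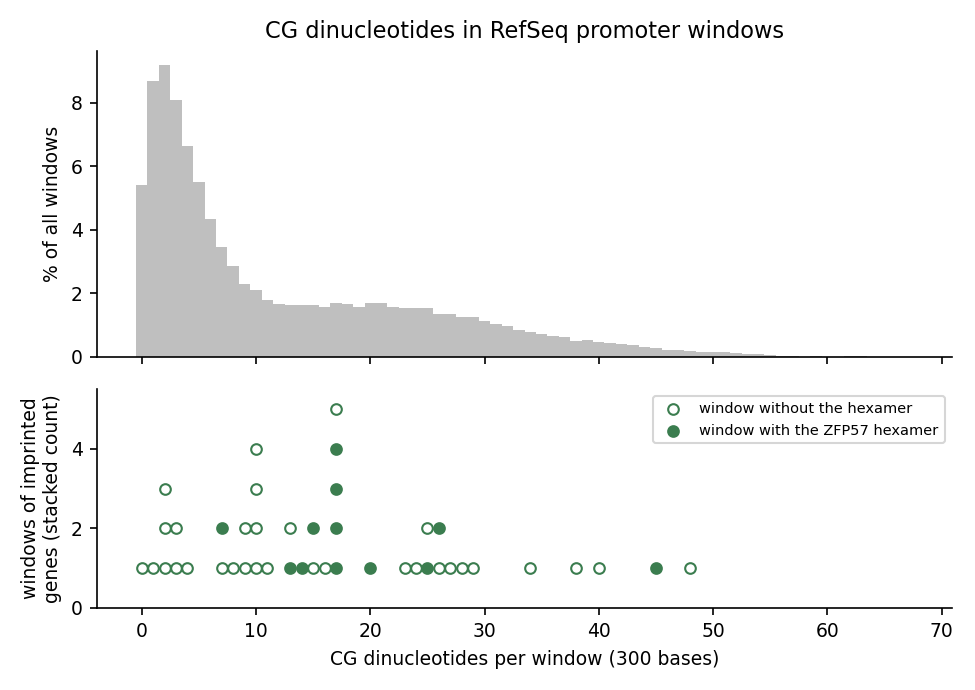
Number of CG dinucleotides per RefSeq promoter window of 300 bases, as the share of all 32851 windows (top) and as 1 point per window for the imprinted genes (bottom), filled where the window holds the hexamer TGCCGC on either strand. Windows of imprinted genes spread from 0 to 48 CG dinucleotides with a median of 15, against a median of 7 for all windows.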

How the data were processed

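The authors deposited 1 scanner table for each array. Per the file headers, its spot intensity was background-subtracted and detrended by Agilent's Feature Extraction software (10.10.1.1), and arrays were not scaled to each other. The authors' value table holds the same intensity times 1 constant per array (1.98 to 2.44; column medians 38.1 to 42.3), without centring; the basis of these constants is not given in the sources used here. Control and outlier spots were left out and log2 processed signals centred on each array's 75th percentile. Spots of a probe were averaged. Features were kept if both arrays of either fraction had them well above background, then fitted in limma 3.58.1 (R 4.3.3) (Venus-positive minus Venus-negative, Benjamini-Hochberg over all features, threshold 0.05, 2 residual and 1.79 prior degrees of freedom). The script was tested on simulated data.

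Accessions were matched to symbols, and promoters and microRNAs read, from RefSeq tables of GRCm38.p6; 27235 of 55681 probes had 1 symbol. Members and lists were chosen with earlier results of these data known. The rule for named genes takes members past the threshold, then by unadjusted p, the rest by level, and up to 6 called or the 2 most changed genes of other lists; genes named beyond it were chosen after their values were seen. Alternatives were background correction (normexp with an offset of 50), scaling, filter, probe choice, variance prior, the authors' table, the replicate block and leaving out each array.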

Additional observations from a re-analysis of the deposited data

How the results depend on the processing

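The count of members called was 1 higher and 1 lower. It was 2 higher and 3 lower with normexp background correction on median spot signals (adding Dlk1, Magel2 and Ppp1r9a), 3 lower with arrays centred on their median (Dlk1, Magel2), 2 lower among genes well above background on all 4 arrays (Magel2), and 3 higher and 4 lower with a signal-dependent variance prior (Dlk1, Magel2, Peg3, Ppp1r9a, Sgce). With dim probes kept it was 0 and 0. Without 1 array, with the lone array of a fraction taken to vary like the others, it was 0 higher and 0 lower each time. Quantile normalization and the authors' value table gave 1 and 1 again. The median log2 change of members was -0.0844 with median centring, -0.266 with the mean of all probes and -0.139 to -0.0574 without 1 array. All tested features called were 181 higher and 321 lower; they were 590 and 702 with normexp, 348 and 380 with median centring, 727 and 937 with the variance prior, 379 and 539 with the block, and 0 with dim probes or without 1 array. With the replicate number as a block, 3 members were higher (Igf2 and Plagl1 added, adjusted p = 0.0467 and 0.0498) and 1 lower, and no other call of a member changed. The numbers are not known to pair the samples: deviations of same-numbered arrays correlated at 0.414 over all features and 0.54 over the 32 members, with only 2 pairs. The cause of these differences was not tested. Among members that passed in none of these fits the sign reversed: Ndn at 0.00077 with normexp and 0.019 with median centring, and Meg3 at -0.36 and Gnas at -0.26 with the mean of all probes. Leaving out 1 array at a time gave ranges across 0 for Ndn (-0.13 to 0.026), Grb10 (-1.08 to 0.37), Gnas (-0.018 to 0.081), Igf2r (-0.014 to 0.16), Ascl2 (-1.13 to 0.10), Impact (-0.088 to 0.13) and Meg3 (-0.070 to 0.40). Single other probes of Meg3 (-0.72, -0.51), Ppp1r9a (-0.15) and Gnas (-0.55), fitted as an alternative added after seeing the data, also turned the sign. Signals near background, as for Kcnq1, Dio3, Rtl1 and Zim1, limit what could be seen.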
